A study of Mus musculus and Homo sapiens with 12 samples.

Results

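The genes described here encode secreted proteins that draw neutrophils and monocytes or that signal through the IL6 receptor family, and they were chosen by name in both lines of a study of PFKFB4 deletion. These members number 17 of the 114564 genes in the deposited tables. In the mouse line EMT6 they are Cxcl1, Cxcl2, Cxcl3, Cxcl5, Ccl2, Ccl7, Il6 and Lif, 8 of 54331 genes. In the human line MDA-MB-231 they are the genes with the same 8 symbols and CXCL8, 9 of 60233 genes, each matched by its Ensembl identifier. EMT6 cells derive from a mammary carcinoma of the mouse, and MDA-MB-231 cells from a human triple-negative breast adenocarcinoma. Poly(A) RNA was sequenced from PFKFB4-knockout (PFKFB4-KO) and wild-type (WT) cells of each line, with 3 libraries per group and 12 in all. Cells of all 4 groups grew in high-glucose DMEM with serum and antibiotics, and none carried a further allele or agent by the labels. The labels call the libraries of a group biological replicates. They do not give the edited site, the number of clones behind a knockout, or whether replicates came from separate cultures, so p-values rest on the variation among these libraries alone. PFKFB4 is a bifunctional enzyme that sets the level of fructose 2,6-bisphosphate, an activator of glycolysis.

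Chemokines are small proteins that bind receptors on leukocytes and set the direction of their migration. CXCL1, CXCL2, CXCL3, CXCL5 and CXCL8 carry a glutamate-leucine-arginine motif before their paired cysteines and act on CXCR1 and CXCR2, which are known above all from neutrophils. CCL2 and CCL7 act on CCR2 and draw monocytes, and CCL7 also binds other CC receptors. IL6 and LIF are cytokines whose receptors share the gp130 chain (gene Il6st) and activate STAT3. Many of these genes are induced by NF-kB, and tumour cells that secrete them can recruit myeloid cells. The mouse genome has no orthologue of CXCL8.

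Values are TPM, a length-corrected share of all transcripts that sums to 1000000 in each library. In EMT6, 11871 to 12015 genes reached 1 TPM per knockout library and 12350 to 12426 per wild-type library. In MDA-MB-231, 13038 to 13338 genes did so per knockout library and 13423 to 13593 per wild-type library. How many reads support a value is unknown. In EMT6, Pfkfb4 itself had 6.96, 6.87 and 8.24 TPM in knockout cells, against 10.2, 10.5 and 10.4 TPM in wild-type cells, so its transcript was lower but still present. Human PFKFB4 was not analysed here, because no table used here names human identifiers beyond the 9 members. Of 16 leukocyte markers in EMT6, 12 stayed under 1 TPM in every library, among them Ptprc, the pan-leukocyte antigen, at or under 0.00409 TPM. Adgre1, Tyrobp and S100a9, which mark macrophages and other myeloid cells, were listed at 0 throughout. The summed leukocyte list had 88.0 to 93.6 TPM in knockout libraries and 51.5 to 56.9 TPM in wild-type libraries, most of it Cd68 and Cd14. All 6 endothelial markers stayed under 1 TPM, and the summed list of 8 fibroblast markers had 225 to 234 TPM in knockout libraries and 504 to 519 TPM in wild-type libraries. Most of the fibroblast sum was Col1a1 (52.4 TPM in the knockout, 200 TPM in wild type) and Col1a2 (171 and 303 TPM). Of 5 tested fibroblast markers 4 were called lower and 1 higher, beside 42.3% and 14.5% of all tested genes. The higher one was Dcn (2.52 TPM in the knockout, 0.412 TPM in wild type), which reached 0.5 TPM, the level needed for testing, in knockout libraries alone. The part of these markers in the results was not tested. Of 4 tested epithelial markers 1 was higher and 3 lower, where 14.5% of all tested genes were higher and 42.3% lower. The keratin Krt8 was higher (535 TPM in the knockout, 482 TPM in wild type). The 3 lower keratins were Krt14 (3.94 TPM in the knockout, 36.5 TPM in wild type), Krt18 (15.5 TPM in the knockout, 36.3 TPM in wild type) and Krt19 (0.0177 TPM in the knockout, 1.95 TPM in wild type). Krt19 reached 0.5 TPM, the level needed for testing, in wild-type libraries alone. Epcam and Cdh1 were under 1 TPM in every library. Of 4 tested mesenchymal markers 1 was higher and 3 lower, beside the same shares of all tested genes. The filament gene Vim was higher (3292 TPM in the knockout, 2711 TPM in wild type). Zeb1 (1.69 TPM in the knockout, 4.74 TPM in wild type), Fn1 (451 TPM in the knockout, 616 TPM in wild type) and Cd44 (log2 fold change -0.64) were lower. With the trend on exon length removed, Fn1 stood at -0.006 and lost its call (adjusted p = 0.949 by limma).

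In EMT6 the members did not move as a block. Transcripts of the monocyte attractants Ccl2 and Ccl7 rose after the deletion, those of the neutrophil attractants Cxcl2 and Cxcl3 fell to traces, and those of Cxcl1 and Cxcl5, which lie in the same gene cluster, stayed among the most abundant of the line. All 8 members passed the filter of at least 0.5 TPM in at least 3 of 6 libraries. Cxcl2 and Cxcl3 passed it through their wild-type libraries alone, the group where they are high, which limits what their calls and ranks add. Tested with limma across all 13499 genes of the line, 3 were called higher, 3 lower and 2 not at an adjusted p of 0.05. The same test called 14.5% of all tested genes higher and 42.3% lower (56.7% in either direction), so a count of 6 in 8 by itself says little about this group. Under median-ratio scaling the split over all genes was 3660 higher and 3327 lower, in place of 1954 and 5705, and the members' split was the same 3 and 3. Libraries did not overlap between the groups for the same 6 members, as for 66.2% of all tested genes (17.9% higher, 48.3% lower). With a 2-fold minimum on the log2(TPM + 1) scale, Ccl2 and Ccl7 were called higher, as were 1.50% of all genes, and Cxcl2 and Cxcl3 lower, as were 4.60%. Some members stood near the ends of the ranking of all tested genes. Ccl7 had the 12th highest and Cxcl3 the 20th lowest log2 fold change of the line, Ccl2 ranked 77th from the highest and Cxcl2 71st from the lowest. The median log2 fold change was -0.09 for the members and -0.21 for all tested genes.

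In MDA-MB-231 every member that could be tested fell. Of the 9 members 6 passed the filter and all 6 were called lower, where the test called 12.1% of 15299 genes lower and 7.97% higher (20.0% in either direction). Under median-ratio scaling 1730 genes were higher and 1658 lower, in place of 1220 and 1845, and the same 6 members were lower. With a 2-fold minimum 5 members were lower, all but LIF, against 2.79% of all genes lower and 0.758% higher. Groups did not overlap for any of the 6, as for 40.1% of tested genes (17.2% higher, 22.9% lower). CXCL1, CXCL8 and CXCL3, ranked 8th, 17th and 26th from the lowest of all tested genes, changed most. A member passes this filter when its wild-type libraries alone are high enough, so the count covers tested members only. CXCL5, CCL7 and CCL2 did not pass. The median log2 fold change was -2.39 for the 6 tested members and -0.04 for all tested genes.

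**Figure D1:**
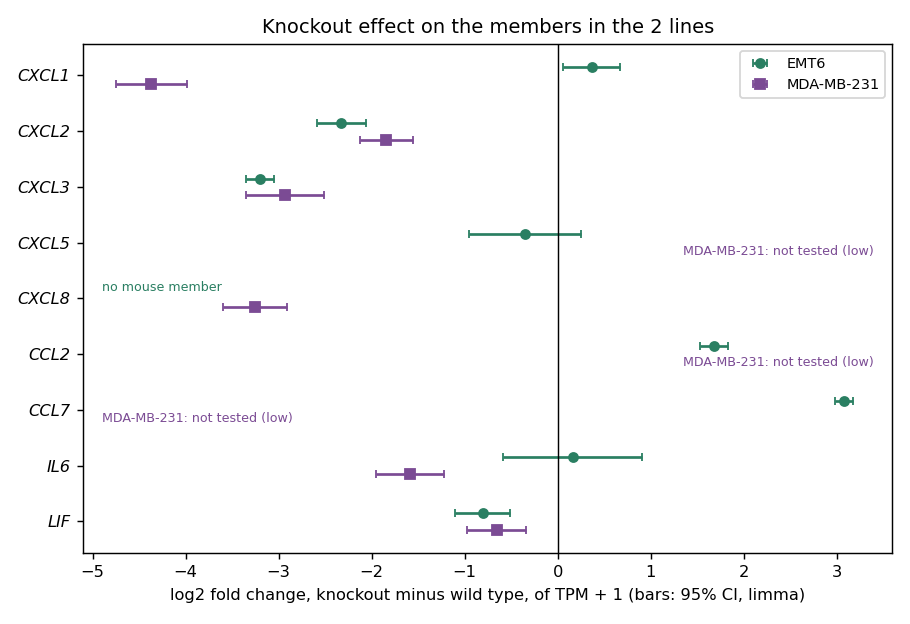
Log2 fold change of TPM + 1 in knockout minus wild type for each member, with the 95% confidence interval of the limma fit, in EMT6 (circles) and MDA-MB-231 (squares). CXCL2, CXCL3 and LIF lie below 0 in both lines, CXCL1 lies just above 0 in EMT6 and at -4.37 in MDA-MB-231, and members too low to test are written as such.

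The neutrophil attractants of the mouse lie together on chromosome 5 of GRCm38, the assembly that mm10 names, all on the plus strand and all protein-coding. Cxcl5 (ENSMUSG00000029371) spans 90759360 to 90761624, Cxcl3 (ENSMUSG00000029379) 90786103 to 90789600, Cxcl1 (ENSMUSG00000029380) 90891241 to 90893115 and Cxcl2 (ENSMUSG00000058427) 90903871 to 90905938. The RefSeq promoter table (GRCm38.p6, from 250 bases before to 50 after the start) holds 5 of the 8 mouse members: Cxcl1, Cxcl2, Cxcl3, Il6 and Lif. The 140 bases before the start are printed for 4 of these. Cxcl1 stayed abundant while Cxcl2 and Cxcl3 fell to traces, so their promoters can be read side by side, and that of Il6 is printed with them. Capitals mark a match to GGANNTTCC, a core of the NF-kB (kappaB) motif, where N is any base and either strand counts.
Cxcl1, chr5:90891105-90891244, plus strand: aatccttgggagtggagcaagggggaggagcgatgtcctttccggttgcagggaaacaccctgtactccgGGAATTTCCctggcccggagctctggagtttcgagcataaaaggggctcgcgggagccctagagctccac
Cxcl2, chr5:90903759-90903898, plus strand: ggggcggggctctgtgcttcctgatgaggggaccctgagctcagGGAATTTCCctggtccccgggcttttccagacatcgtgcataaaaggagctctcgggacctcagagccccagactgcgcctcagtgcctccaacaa
Cxcl3, chr5:90785961-90786100, plus strand: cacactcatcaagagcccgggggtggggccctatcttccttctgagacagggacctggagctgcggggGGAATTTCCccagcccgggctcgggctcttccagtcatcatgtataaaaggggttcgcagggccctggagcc
Il6, chr5:30012974-30013113, plus strand: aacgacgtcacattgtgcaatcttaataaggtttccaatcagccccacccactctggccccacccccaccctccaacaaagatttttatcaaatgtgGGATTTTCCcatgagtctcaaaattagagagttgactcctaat

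All 4 printed stretches hold exactly 1 match each, starting at position -70 in Cxcl1, -96 in Cxcl2, -72 in Cxcl3 and -43 in Il6, counted from the RefSeq start. The gene spans given above for Cxcl1 and Cxcl2 start inside the printed stretches, at 90891241 and 90903871. Positions compared between genes therefore depend on the annotation used. The 9 matched bases are the same in Cxcl1, Cxcl2 and Cxcl3. Over all 32851 promoters of the table, 4.26% hold the motif in the whole window and 2.18% in these 140 bases. The stretches of Cxcl1 and Cxcl2 share a run of 14 bases, gggaatttccctgg, which includes the match, and are 55.4% identical when aligned. Those of Cxcl1 and Cxcl3 share 11 bases, gggaatttccc, and are 61.3% identical. Lif, whose stretch is not printed, has no match to this motif in its window. The printed stretches are thus those with a match, so a match in each of them is no separate result. The other motifs searched, on both strands of the full window, were TTGCNNAA (C/EBP), TGANTCA (AP-1) and an interferon response motif, which 10.8%, 7.81% and 3.44% of all promoters hold. C/EBP matched in Il6 at -128, AP-1 in Il6 at -249 and in Lif at -228, and the interferon response motif in none of the 5. A match is a run of letters and does not show that a factor binds there.

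Cxcl2 and Cxcl3, which encode the ligands also called MIP-2 and DCIP-1 in the mouse, were nearly absent from EMT6 knockout cells. Cxcl3 had 0.0233, 0.022 and 0 TPM in knockout libraries, against 8.09, 8.62 and 8.23 TPM in wild-type libraries. Cxcl2 had 0.228, 0.176 and 0.145 TPM in knockout libraries, against 4.59, 4.43 and 5.89 TPM in wild-type libraries. The groups stand far apart for both genes, with a mean of 0.183 ± 0.0421 TPM for Cxcl2 in the knockout and 4.97 ± 0.797 TPM in wild type (SD, n = 3 each), a 27.1-fold lower mean. On the log2(TPM + 1) scale the change was -3.2 ± 0.06 for Cxcl3 (SE, adjusted p = 8.67e-06 by limma) and -2.33 ± 0.11 for Cxcl2 (adjusted p = 8.97e-05). The pseudocount of 1 understates changes of low genes, and with 0.1 in its place the values were -6.2 and -4.16. Of the distinct 50-base stretches in their annotated transcripts, 4.29% of those of Cxcl3 and 5.84% of those of Cxcl2 also occur in another gene. All 126 such stretches of Cxcl2 lie in Cxcl3, while the 154 of Cxcl3 occur in Cxcl2 and in many unrelated genes, so a small share of reads could be counted for another gene. No such stretch of Cxcl1 occurs in another gene.

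Cxcl1, the mouse ligand KC, had 309, 334 and 238 TPM in EMT6 knockout libraries, against 221, 229 and 227 TPM in wild-type libraries. The groups did not overlap, but the lowest knockout library lay close to wild type. The log2 fold change was 0.37 ± 0.12 (SE, adjusted p = 0.0471 by limma), an increase whose call is marginal. It was lost when any wild-type library or knockout replicate 1 or 2 was left out (adjusted p = 0.0964 to 0.129), and it was kept without knockout replicate 3. It was 0.61 (adjusted p = 0.00782) under median-ratio scaling and 0.32 (adjusted p = 0.0789) with the trend on exon length removed. Cxcl5, whose protein is also called LIX, had 442, 378 and 241 TPM in knockout libraries, against 492, 470 and 359 TPM in wild-type libraries. These ranges overlap, and the change of -0.35 ± 0.25 (SE) did not pass the test (adjusted p = 0.27; 95% confidence interval -0.95 to 0.26).

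Because Cxcl1 and Cxcl5 made up nearly all of the neutrophil-attracting transcripts of EMT6, the sum of the 4 CXC members changed little in level. It was 752, 712 and 479 TPM in knockout libraries, against 726, 712 and 600 TPM in wild-type libraries, and the ranges overlap. Cxcl1 held 41.1 to 49.7% of that sum in the knockout and 30.4 to 37.8% in wild type, without overlap, and Cxcl5 held 50.3 to 58.8% and 59.9 to 67.8%. Cxcl2 and Cxcl3 held at most 0.0304% and 0.00309% in any knockout library, against 0.623 to 0.982% and 1.11 to 1.37% in wild-type libraries.

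**Figure D2:**
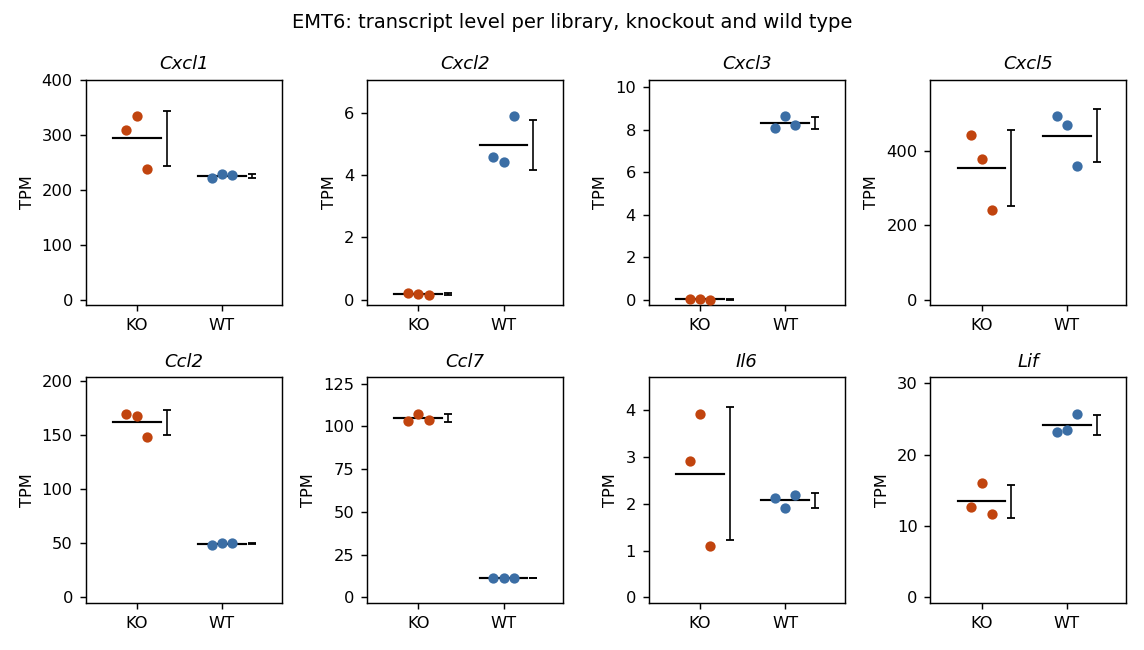
TPM of the 8 mouse members in each EMT6 library, knockout on the left and wild type on the right of each panel, on linear axes that differ between panels. Points are libraries, horizontal lines group means and bars SD (n = 3 each); Ccl2 and Ccl7 are higher and Cxcl2, Cxcl3 and Lif lower in all 3 knockout libraries, and Cxcl5 and Il6 overlap between groups.

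Other genes of the cluster were not called lower. Protein-coding genes whose start lies within 200 kb of the Cxcl1 start were taken for this comparison after the members' values had been seen. Relative to the Cxcl1 start, on the plus strand, Cxcl2 starts at 12.6 kb, Cxcl3 at -105 kb and Cxcl5 at -132 kb. Ppbp, which encodes another CXCR2 ligand from platelets and starts at -123 kb, had 3.6, 3.23 and 3.05 TPM in the knockout and 3.15, 3.33 and 2.64 TPM in wild type (log2 fold change 0.09, adjusted p = 0.445 by limma). Mthfd2l, a mitochondrial folate enzyme gene at 39.9 kb, had 6.05, 5.8 and 4.83 TPM in the knockout and 8.4, 6.58 and 5.93 TPM in wild type (-0.27, adjusted p = 0.139). Of the genes in that window, Cxcl2 and Cxcl3 were the ones called lower. Cxcl15, a further CXC ligand, was listed at 0 in all 6 libraries.

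Monocyte attractants behaved in the opposite way in EMT6. Ccl2 (ENSMUSG00000035385, chromosome 11, 82035571 to 82037453, plus strand) encodes MCP-1. It had 169, 167 and 148 TPM in knockout libraries, against 48.8, 50.1 and 49.9 TPM in wild-type libraries. Ccl7 (ENSMUSG00000035373, chromosome 11, 82045712 to 82047525, plus strand) encodes MCP-3. It had 103, 107 and 104 TPM in knockout libraries, against 11.4, 11.5 and 11.4 TPM in wild-type libraries. Libraries of a group lay close together for both genes and the groups were far apart. Means were 3.25-fold higher in the knockout for Ccl2 and 9.13-fold higher for Ccl7, with log2 fold changes of 1.68 ± 0.06 (SE, adjusted p = 4.34e-05 by limma) and 3.08 ± 0.04 (adjusted p = 2.96e-06). Their sum stood at 252 to 274 TPM in the knockout and 60.2 to 61.7 TPM in wild type. Where the level of a transcript differs in a bulk library, more cells that express it and more RNA per cell cannot be told apart.

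Ccl8, a CC chemokine gene that starts 79.6 kb from Ccl2, went the same way from near 0. It had 1.5, 1.86 and 2.39 TPM in knockout libraries, against 0.061, 0 and 0 TPM in wild-type libraries (log2 fold change 1.5 ± 0.12, SE, adjusted p = 0.000404 by limma). Ccl8 passed the filter through its knockout libraries alone, the group where it is high, which limits what its call adds. Ccl11 and Ccl12, which lie between Ccl7 and Ccl8, stayed at or under 0.0871 TPM in all 6 libraries. Gm17268, annotated on the opposite strand across Ccl2, was listed at 0 throughout. The leukocyte markers Cd68, Coro1a and S100a8 rose in the same libraries, to 56.1, 5.14 and 4.82 TPM in the knockout, against 23.9, 2.17 and 1.67 TPM in wild type. Tyrobp and Adgre1, which define myeloid cells, were at 0 in all 6, and Cd14 had 22.7 to 24.6 TPM in the knockout and 25.1 to 25.4 TPM in wild type. Of the markers under 1 TPM, Lyz2 and Spi1 were higher in the knockout without overlap, and Csf1r and Laptm5 lower. These 4 markers are named after their values were seen and were too low to test. Groups did not overlap for 66.2% of all tested genes of the line either. How many reads support such traces is unknown. Means in the knockout and wild type were 0.085 and 0.0071 TPM for Spi1, 0.0169 and 0.0641 TPM for Csf1r, and 0.00287 and 0.0866 TPM for Laptm5. Lyz2 had 0.335, 0.584 and 0.322 TPM in the knockout and 0.03, 0 and 0.019 TPM in wild type. The part of the rising markers in the chemokine levels was not tested.

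**Figure D3:**
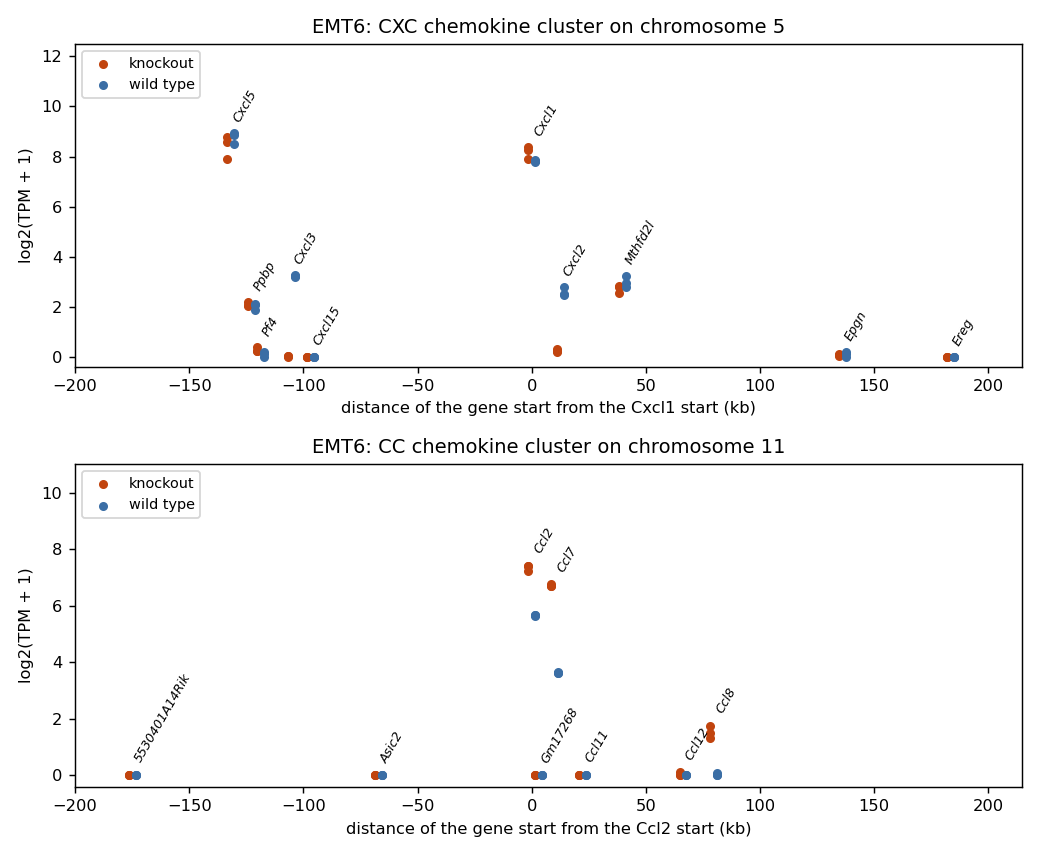
Levels as log2(TPM + 1) of protein-coding genes around Cxcl1 on chromosome 5 and around Ccl2 on chromosome 11 in EMT6, by distance of the gene start in kb, with 3 knockout and 3 wild-type libraries per gene drawn slightly apart. Cxcl3 and Cxcl2 lie near 0 in the knockout, Cxcl5 and Ppbp overlap between the groups, Cxcl1 lies slightly higher in the knockout, and Ccl2, Ccl7 and Ccl8 lie higher in the knockout.

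Of the gp130 cytokines in EMT6, Lif fell and Il6 varied too much between knockout libraries to be called. Lif (ENSMUSG00000034394, chromosome 11, 4257557 to 4272514, plus strand) encodes leukemia inhibitory factor. It had 12.7, 16.1 and 11.6 TPM in knockout libraries, against 23.2, 23.5 and 25.7 TPM in wild-type libraries, with no overlap and a log2 change of -0.81 ± 0.12 (SE, adjusted p = 0.00267 by limma). Il6 (ENSMUSG00000025746, chromosome 5, 30013114 to 30019981, plus strand) lies on the same chromosome as the CXC cluster but far from it. It had 2.9, 3.91 and 1.1 TPM in knockout libraries, against 2.13, 1.9 and 2.19 TPM in wild-type libraries. The change of 0.16 ± 0.31 (SE) was not called (adjusted p = 0.68; 95% confidence interval -0.59 to 0.91). Without knockout replicate 3 it was 0.51 and called higher (adjusted p = 0.0265), and without knockout replicate 2 it was -0.1 (adjusted p = 0.782), so single libraries decide its sign. Knockout replicate 3 was the lowest of the 3 knockout libraries for 7 of the 8 members, where it was the lowest for 36.0% of all tested genes.

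In MDA-MB-231 the 4 neutrophil attractants that were expressed fell together. CXCL8 (ENSG00000169429), which encodes interleukin 8, had 9.18, 8.38 and 8.93 TPM in knockout libraries, against 90.7, 114 and 77.3 TPM in wild-type libraries. CXCL1 (ENSG00000163739) had 3.2, 1.75 and 2.35 TPM in knockout libraries, against 72.4, 66.1 and 68 TPM in wild-type libraries. These were the most abundant members of wild-type cells, and no knockout library came near a wild-type one. The mean of CXCL8 was 10.6-fold lower and that of CXCL1 28.3-fold lower in the knockout, with log2 fold changes of -3.25 ± 0.14 (SE, adjusted p = 8.6e-05 by limma) and -4.37 ± 0.16 (adjusted p = 4.49e-05).

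CXCL3 (ENSG00000163734) had 0.876, 0.289 and 0.803 TPM in MDA-MB-231 knockout libraries, against 12.6, 11.6 and 10.3 TPM in wild-type libraries, a log2 change of -2.93 ± 0.17 (SE, adjusted p = 0.000256 by limma). CXCL2 (ENSG00000081041) had 3.28, 3.18 and 2.73 TPM in knockout libraries, against 15.2, 12.6 and 12.9 TPM in wild-type libraries, a change of -1.84 ± 0.12 (adjusted p = 0.000326). Both genes fell without overlap, CXCL2 by a factor of 4.43 in the mean. Human CXCL1, CXCL2 and CXCL3 are close paralogues, and how reads that fit more than 1 of them were counted is not given in the sources used here, so the split between them is uncertain. CXCL5 (ENSG00000163735) was listed at 0 in all 6 libraries, while the mouse gene of that symbol was the most abundant member in EMT6.

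The sum of the CXC members in MDA-MB-231 was 16.5, 13.6 and 14.8 TPM in knockout libraries, against 191, 204 and 168 TPM in wild-type libraries. CXCL8 held 55.5 to 61.7% of it in the knockout and 45.9 to 55.7% in wild type. CXCL1 held 12.9 to 19.4% and 32.4 to 40.4%, so its share shrank along with the total. CXCL2 held 18.5 to 23.4% in the knockout and 6.19 to 7.97% in wild type.

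**Figure D4:**
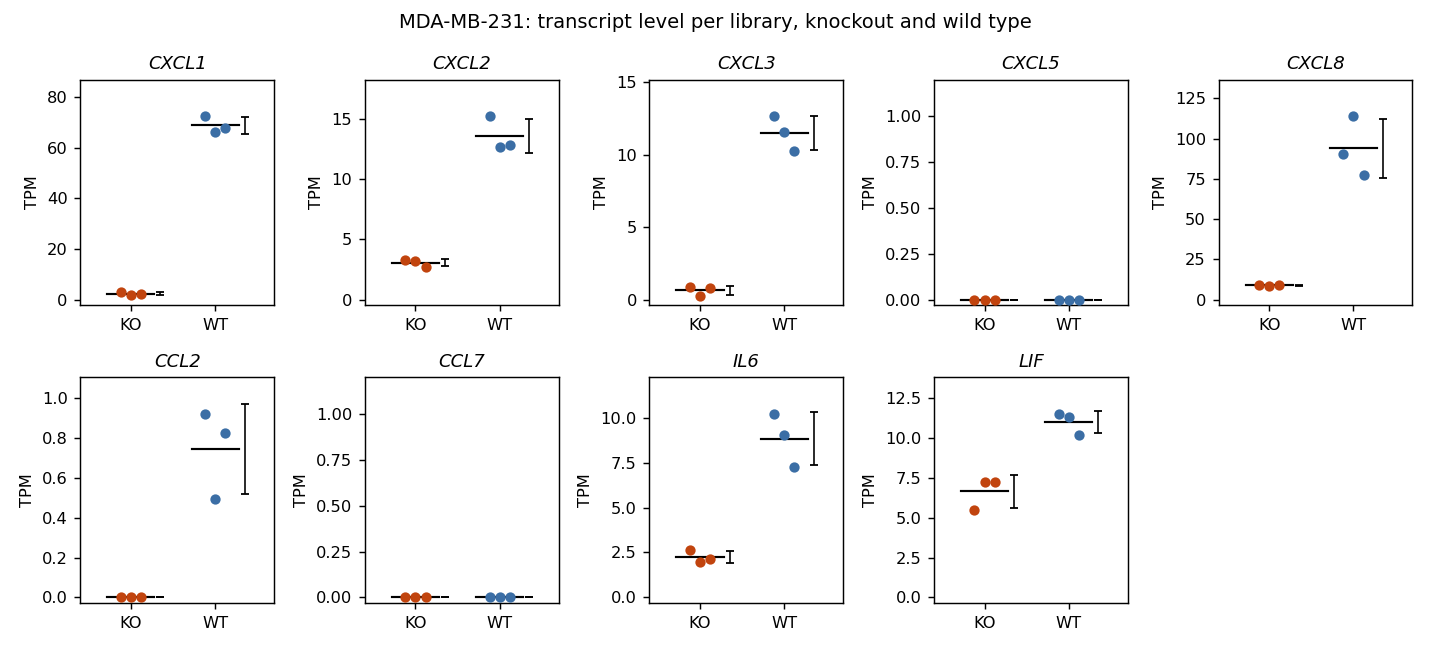
TPM of the 9 human members in each MDA-MB-231 library, knockout on the left and wild type on the right of each panel, on linear axes that differ between panels. Points are libraries, horizontal lines group means and bars SD (n = 3 each); CXCL1, CXCL2, CXCL3, CXCL8, IL6 and LIF are lower in all 3 knockout libraries, and CXCL5 and CCL7 are at 0 throughout.

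IL6 and LIF also fell in MDA-MB-231. IL6 (ENSG00000136244) had 2.63, 1.98 and 2.16 TPM in knockout libraries, against 10.2, 9.02 and 7.27 TPM in wild-type libraries, a mean 3.91-fold lower and a log2 change of -1.59 ± 0.15 (SE, adjusted p = 0.0013 by limma). LIF (ENSG00000128342) had 5.46, 7.23 and 7.26 TPM in knockout libraries, against 11.5, 11.3 and 10.2 TPM in wild-type libraries, a change of -0.66 ± 0.13 (adjusted p = 0.0178). The groups did not overlap for either gene. The LIF call was lost without wild-type replicate 1 (adjusted p = 0.0723) or wild-type replicate 2 (adjusted p = 0.051).

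Monocyte attractants were close to absent from MDA-MB-231. CCL2 (ENSG00000108691) was listed at 0 in all 3 knockout libraries, against 0.92, 0.492 and 0.823 TPM in wild-type libraries. It missed the filter and was not tested with the other genes. With no filter on low values its adjusted p was 0.0126 in limma. CCL7 (ENSG00000108688) was listed at 0 in all 6 libraries. A fold change against libraries at 0 is not given, since the read depth behind these values is unknown.

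The order of levels among the members differed between genotypes. Since TPM is corrected for length, levels of different genes can be ranked within a line. In EMT6 knockout cells the order was Cxcl5, Cxcl1, Ccl2, Ccl7, Lif, Il6, Cxcl2 and Cxcl3, and only Cxcl5 and Cxcl1 overlapped among neighbours in it. In EMT6 wild-type cells it was Cxcl5, Cxcl1, Ccl2, Lif, Ccl7, Cxcl3, Cxcl2 and Il6, with no neighbours overlapping. In MDA-MB-231 knockout cells the order was CXCL8, LIF, CXCL2, CXCL1, IL6 and CXCL3, where CXCL2 and CXCL1, and CXCL1 and IL6, overlapped. In MDA-MB-231 wild-type cells it was CXCL8, CXCL1, CXCL2, CXCL3, LIF, IL6 and CCL2, where CXCL3 and LIF, and LIF and IL6, overlapped. The level of Cxcl1 was exceeded by 3.42% of tested genes in EMT6 knockout cells and by 4.15% in wild-type cells. That of CXCL1 was exceeded by 71.4% of tested genes in MDA-MB-231 knockout cells and by 12.1% in wild-type cells.

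Set side by side by symbol, CXCL2, CXCL3 and LIF were called lower in both lines. Their log2 fold changes were -2.33, -3.2 and -0.81 in EMT6 and -1.84, -2.93 and -0.66 in MDA-MB-231. Whether mouse and human genes that share a symbol are direct orthologues was not examined. CXCL1 was higher in EMT6 and lower in MDA-MB-231, as was CCL2, which was barely detected in the human line. The difference between lines was not tested, because human genes other than the members had no names to match on and each line's table was scaled on its own. Levels across the lines come from tables normalized separately and are not compared.

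Genes that act with or upstream of the members were described in EMT6 by lists chosen with earlier results of these data known. No list was tested as a whole. Over all tested genes, 14.5% were higher and 42.3% lower in TPM with a median of -0.21, and 27.1% were higher and 24.6% lower under median-ratio scaling with a median of -0.01, so each list is given under both. Of 25 NF-kB subunits, inhibitors and kinases, 1 was higher and 15 lower with a median of -0.35 in TPM, and 2 were higher and 9 lower with a median of -0.13 under median-ratio scaling, against the shares of all genes given above. The adaptor kinase Irak1 (-0.89, adjusted p = 0.000463 by limma), the inhibitor Nfkbie (-0.8, adjusted p = 0.000449) and the subunit gene Nfkb2 (-0.52, adjusted p = 0.00057) fell, and the inhibitor Nfkbib (0.35, adjusted p = 0.0074) rose. The inhibitor Nfkbia is itself an NF-kB target and is named after its values were seen. It had 40.7, 43.3 and 38.7 TPM in the knockout and 48.1, 51.4 and 50.6 TPM in wild type (-0.29, adjusted p = 0.00712). Median-ratio scaling moved it to -0.04 and the call was lost (adjusted p = 0.543). Removing the exon length trend left Nfkbia lower, at -0.37 (adjusted p = 0.00376). In TPM 9 genes of this list were not called, among them Nfkbiz (-0.03, adjusted p = 0.922), Tnfaip3 (-0.18, adjusted p = 0.256) and Bcl3 (-0.28, adjusted p = 0.126).

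Of 12 tested receptors for upstream cytokines and microbial patterns, 0 were higher and 5 lower in TPM, and 2 were higher and 4 lower under median-ratio scaling. The share lower in TPM is near the 42.3% of all tested genes. The interleukin 1 receptor gene Il1r1 had 2.59, 2.73 and 2.34 TPM in the knockout and 7.57, 6.28 and 6.74 TPM in wild type (log2 fold change -1.14 ± 0.09, SE, adjusted p = 0.000362 by limma). Its accessory chain Il1rap (-0.59, adjusted p = 0.00657) and the tumour necrosis factor receptor Tnfrsf1b (-0.57, adjusted p = 0.000511) fell with it, and Il1rap lost its call with the exon length trend removed (adjusted p = 0.183). The cytokine gene Tnf had 8.89, 10.3 and 7.33 TPM in the knockout and 6.19, 6.29 and 5.75 TPM in wild type (0.47, adjusted p = 0.0185).

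Of 14 other transcription factors known to act on these promoters, 3 were higher and 6 lower in TPM, and 4 were higher and 2 lower under median-ratio scaling. These shares are near those of all tested genes in TPM, 14.5% higher and 42.3% lower. Atf3, a stress-induced factor of the AP-1 family, had 7.32, 8.43 and 6.41 TPM in the knockout and 1.38, 1.14 and 1.88 TPM in wild type (log2 fold change 1.77 ± 0.14, SE, adjusted p = 0.000413 by limma). Cebpd (0.61, adjusted p = 0.0109) and Junb (0.18, adjusted p = 0.0215) rose, and Hif1a (-1.17, adjusted p = 0.00156) and Fosl2 (-0.79, adjusted p = 0.000536) fell. Yap1 was lower in TPM (-0.28, adjusted p = 0.00682), but stood at -0.04 under median-ratio scaling (adjusted p = 0.503). Of 11 factors of AU-rich mRNA decay and stability, which act on many cytokine transcripts, 0 were higher and 7 lower in TPM with a median of -0.31. Under median-ratio scaling 1 was higher and 4 lower with a median of -0.11, and the median was 0.09 with the exon length trend removed. Tia1 (-0.82, adjusted p = 0.00232) was lower under all 3, while Hnrnpd (-0.24, adjusted p = 0.00172) was at 0.003 under median-ratio scaling and 0.11 with the trend removed. Khsrp (-0.37, adjusted p = 0.00167) was at -0.12 under median-ratio scaling (adjusted p = 0.0822).

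Of 14 tested receptors and signalling genes of the chemokine and IL6 families, 1 was higher and 10 lower in TPM, where 42.3% of all tested genes were lower, and 2 were higher and 8 lower under median-ratio scaling, where 24.6% were lower. With the exon length trend removed 1 was higher and 5 lower, where 26.6% of all genes were lower, and the list median was -0.19 in place of -0.51. The scavenging chemokine receptor Ackr3 had 5, 6 and 4.46 TPM in the knockout and 12.7, 12.1 and 11.9 TPM in wild type (log2 fold change -1.11 ± 0.1, SE, adjusted p = 0.000588 by limma). The IL6 receptor chain Il6ra (-0.74, adjusted p = 0.000587) and the kinase Jak2 (-0.59, adjusted p = 0.00176) fell, and the interleukin 11 receptor Il11ra1 (0.53, adjusted p = 0.013) rose. With the exon length trend removed Il6ra stood at -0.36 and Jak2 at -0.32, both still called. Il6st, which encodes gp130 and is named after its values were seen, had 15.8, 23.4 and 22 TPM in the knockout and 81, 71.7 and 44 TPM in wild type (-1.61, adjusted p = 0.0034). Cxcr2, the receptor of the neutrophil attractants, and Ccr2, that of Ccl2 and Ccl7, are also named after their values were seen. Cxcr2 had 1.32, 1.22 and 1.51 TPM in the knockout and 1.57, 1.7 and 1.75 TPM in wild type. It was not called (-0.19, adjusted p = 0.0737 by limma), and under median-ratio scaling it stood at -0.04 (adjusted p = 0.693). Ccr2 stayed at or under 0.0475 TPM in all 6 libraries.

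Other secreted attractants and growth factors also moved in both directions. Of 16 further chemokines listed 7 were tested, of which 5 were higher and 1 lower in TPM and under median-ratio scaling. Cxcl10 and Ccl8 passed the filter through their knockout libraries alone, the group where they are high. That limits what their calls, this count and the list median add. Over all tested genes 14.5% were higher and 42.3% lower in TPM, and 27.1% and 24.6% under median-ratio scaling. Cxcl16 had 29.2, 28.4 and 28.3 TPM in the knockout and 16.6, 18 and 18.1 TPM in wild type (log2 fold change 0.68 ± 0.05, SE, adjusted p = 0.00035 by limma). Cxcl10, an interferon-induced ligand of CXCR3, had 2.06, 1.75 and 1.2 TPM in the knockout and 0.213, 0.247 and 0.316 TPM in wild type (1.07, adjusted p = 0.00141), and Cx3cl1 fell (-0.67, adjusted p = 0.00144). Ccl5, named after its values were seen, had 14.1, 13.2 and 15 TPM in the knockout and 3.11, 3.07 and 5.66 TPM in wild type (1.65, adjusted p = 0.00145). Of 6 tested colony-stimulating factors and related cytokines, 1 was higher and 4 lower in TPM, and 1 was higher and 3 lower under median-ratio scaling. The same shares of all tested genes apply to this list. Csf3, the granulocyte colony-stimulating factor, had 1.4, 1.87 and 1.15 TPM in the knockout and 4.25, 4.42 and 4.85 TPM in wild type (-1.17 ± 0.12, SE; adjusted p = 0.000859). Il33 (-1.65, adjusted p = 0.000179) and Il11 (-0.52, adjusted p = 0.00291) fell with it. Il11 passed the filter through its wild-type libraries alone, which limits what its call adds.

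**Figure D5:**
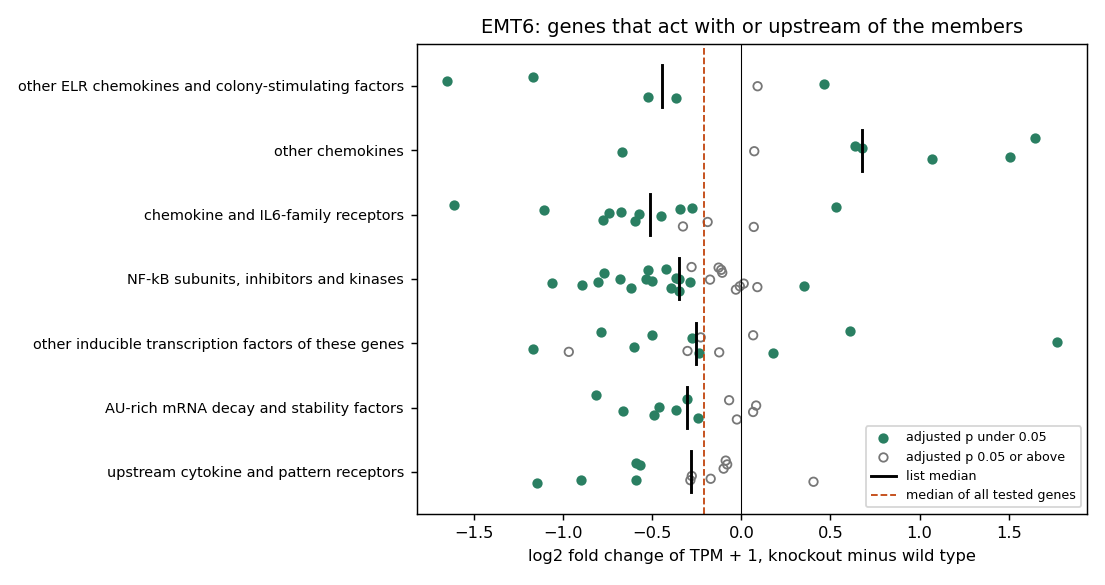
Log2 fold change of TPM + 1 in EMT6, knockout minus wild type, for each tested gene of 7 lists, filled where the limma adjusted p is under 0.05, with the list median in black and the median of all tested genes, -0.21, as a dashed line. The list of other chemokines has a median of 0.68, to the right of that line, and the medians of the other 6 lists lie to its left. In the list of other chemokines, Cxcl10 and Ccl8 passed the filter through knockout libraries alone.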

How the data were processed

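The submitters' processing notes list TopHat2 2.1.1, CASAVA 1.8.2, Subread 1.6.4 and featureCounts, and as builds GRCh38.p7 and mm10. Settings, strand and the treatment of reads that fit several genes are not stated there. The authors deposited TPM values in 1 table per line, each library summing to 1000000. Knockout columns carry codes (A7 in EMT6, G2 in MDA-MB-231) that no label explains and were taken as the knockout by elimination, since the remaining 3 in either table carry a wild-type name. TPM keeps no depth, so no count test was run; a fit across both lines was not made.

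Within each line, a fit with limma 3.58.1 (R 4.3.3; mean-variance trend on) was made to log2(TPM + 1), for genes at or above 0.5 TPM in at least 3 of 6 libraries, with Benjamini-Hochberg adjusted p over all of them and calls at 0.05. It was tested on simulated data. GENCODE M21 gave mouse gene positions, names and exon lengths, and RefSeq the promoters. Identical values above 0 reached at most 0.00862% between any pair of libraries. The named genes are all members, up to 3 list genes per direction with the smallest adjusted p, and genes marked as chosen after their values were seen. Members and lists were chosen with earlier results of these data known. Alternatives were no trend, median-ratio scaling, no filter, a pseudocount of 0.1, a filter of 1 TPM, the removal of single libraries, a replicate block, a minimum of 2-fold and, in EMT6, removal of the exon length trend.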

Additional observations from a re-analysis of the deposited data

Results flagged for a closer look

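CXCL1 and CCL2, paired between the lines by symbol alone, lay on opposite sides of wild type in the 2 lines. For both, all 3 knockout libraries lay above all 3 wild-type libraries in EMT6 and all 3 below in MDA-MB-231. The knockout minus wild-type difference in mean TPM was 68.2 in EMT6 and -66.4 in MDA-MB-231 for CXCL1, and 112 in EMT6 and -0.745 in MDA-MB-231 for CCL2. The difference between the lines was not tested, the Cxcl1 call in EMT6 was lost in 10 of 14 alternatives, and CCL2 in MDA-MB-231 was under the filter on low values. Groups that do not overlap made up 66.2% of tested genes in EMT6 and 40.1% in MDA-MB-231.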

How the results depend on the processing

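Ccl2, Ccl7, Cxcl2 and Cxcl3 in EMT6 and CXCL1, CXCL2, CXCL3, CXCL8 and IL6 in MDA-MB-231 kept their direction and call under every alternative run. Cxcl1 in EMT6 lost its call in 10 of 14 alternatives. Il6 in EMT6 turned to -0.099 without knockout replicate 2, and ranged from there to 0.51 with 1 library left out. In EMT6, leaving out 1 library gave 2 to 4 members higher and 3 lower. In MDA-MB-231 it gave 0 higher and 5 to 6 lower. Over all genes, 1954 were called higher and 5705 lower in EMT6, against 3660 and 3327 under median-ratio scaling, 3124 and 3589 with the exon length trend removed, 202 and 621 with a 2-fold minimum, and 1526 to 1851 and 4722 to 5215 with 1 library left out. In MDA-MB-231 1220 were higher and 1845 lower, against 116 and 427 with a 2-fold minimum and 543 to 1107 and 975 to 1597 with 1 library left out. The causes were not tested. With the replicate block, 2 members were higher and 4 lower in EMT6 (Cxcl1 lost its call, adjusted p = 0.0565, and Cxcl5 gained one, adjusted p = 0.043) and 5 lower in MDA-MB-231 (LIF, adjusted p = 0.0661). That block gave 534 genes higher and 1030 lower in MDA-MB-231 and 1629 and 5022 in EMT6. The labels do not say whether same-numbered libraries were handled together. Their deviations from group means correlated at -0.0175 to 0.0728 (EMT6) and -0.127 to 0.114 (MDA-MB-231). Pairs with unlike numbers stood at -0.122 to 0.0623 and -0.182 to 0.191. With 3 libraries per group these values cannot show whether a pairing exists. Alternatives for the difference between lines, and the exon length trend in MDA-MB-231, were not run because no human annotation was used. Depth behind each TPM is unknown, which limits what can be said of members under 1 TPM in a group: Cxcl2 and Cxcl3 in EMT6 knockout libraries, and CXCL3 and CCL2 in MDA-MB-231.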

Other observations

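The genes most like Cxcl1, Ccl2 and Il6 in EMT6 were sought among 12419 other named genes averaging 1 TPM or more, by Pearson's r of log2(TPM + 1) over the 6 libraries, as a description with no test. The libraries form 2 groups, so a high r mostly mirrors the group difference. Mrgbp (0.992), Gm15151 (0.989) and Gm47797 (0.988) followed Cxcl1. Nr1h4, Smim19 and Ces1g followed Ccl2, at 0.999 or above. Prpsap2 (0.974), Snrpert (0.958) and Clba1 (0.958) followed Il6.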
